A study of Arabidopsis thaliana with 30 samples.

Results

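Nuclear RNA of the outer tissues of the Arabidopsis inflorescence stem was set against that of its vascular tissues. The outer side was the equal-weight mean of starch sheath nuclei (SCRpro line) and epidermis nuclei (LTP1pro line), and the vascular side the equal-weight mean of nuclei from fibers (NST3pro), differentiating vessels (VND7pro), the proximal cambium (PXYpro), the distal cambium (SMXL5pro) and the phloem (APLpro). Of 30 libraries in the series, 21 came from GFP-positive nuclei of these 7 lines, 6 on the outer side and 15 on the vascular side, with 3 per line. All plants were Col-0 and untreated, and each carried histone H4 fused to GFP under the promoter that names the line. Stems of the second internode were chopped by hand on ice, nuclei were sorted by GFP, and 15000 nuclei went into each library, except for LTP1pro replicate 21 with 10800. A nucleus therefore belongs to a group because it held H4-GFP, whichever cell it came from, and the RNA is nuclear. The labels do not say whether the 3 libraries of a line came from separate plants, so p-values measure the spread between these libraries, which may be partly technical. A smaller share of cells that use a gene and less of its RNA per nucleus cannot be told apart.

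The starch sheath is the innermost layer of the stem cortex, whose cells hold sedimenting starch grains and sense gravity, whereas the epidermis covers the stem and deposits cuticular waxes and cutin. Plant cells detect microbes with receptor kinases at the plasma membrane, such as the flagellin receptor FLS2, and relay the signal to WRKY transcription factors, which bind W-boxes in promoters. Jasmonate is a lipid-derived hormone of wounding and defence: lipoxygenases, allene oxide synthase and cyclase and OPR3 make it, JAR1 couples it to isoleucine, the conjugate brings the receptor COI1 and the JAZ repressors together, and CYP94 enzymes oxidise the conjugate again.

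A gene was called at a Benjamini-Hochberg adjusted p under 0.01 and a change of more than 2-fold in edgeR's quasi-likelihood test, in 1 fit to the counts of all 21 libraries. A gene was termed shared when SCRpro and LTP1pro nuclei each differed from the vascular mean in the same direction by more than 2-fold and the larger of both p-values passed the same threshold after adjustment. Both comparisons use the same 15 vascular libraries, so their values are given side by side and the number of shared genes has no test. Levels are normalized read counts (CPM), scaled to a common library size, and differences are on the log2 scale with standard errors (SE). CPM is not divided by gene length, so a gene is compared across libraries only.

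Total counts ranged from 1918733 to 3732457 reads per outer library and from 3272254 to 18335693 per vascular library, so the outer side was sequenced less deeply, and the part of depth in the results was not tested. The study left out 4 of these libraries, NST3pro replicate 2, VND7pro replicate 6, APLpro replicate 15 and LTP1pro replicate 19. It judged them outliers by principal component and correlation analysis, and also because some known genes had unexpected counts there. Since the choice rested in part on such counts, results are given for all 21 and repeated with the remaining 17. LTP1pro replicate 19 stands apart from its group, with 28473 genes detected against 33127 and 33488 in LTP1pro replicates 20 and 21. Its share of pseudogene reads was 1.33%, against 4.56% and 4.41%. Over the shared higher genes its level exceeded the mean of LTP1pro replicates 20 and 21 by a median of 1.25 on the log2 scale, against -0.39 over all genes tested. Those genes were called with replicate 19 in the group, so the call favours genes that are high in it. SCR, the gene whose promoter labels the starch sheath, reached 65.9, 53.9 and 51.3 CPM in the SCRpro libraries and at most 28.9 in a vascular one, and was called in SCRpro nuclei (1.87 ± 0.42). LTP1 itself was not: its 42.8, 23.0 and 29.6 CPM in the LTP1pro libraries lay below the highest vascular library at 76.2, and the difference was 1.19 ± 0.51 (adjusted p = 0.181). The epidermal markers FDH (2.38 ± 0.27) and CER6 (2.90 ± 0.29) were called in LTP1pro nuclei. Transcripts of vascular gene lists were also read in the outer libraries. Summed over 55 secondary wall genes, the level was 14291 to 20616 CPM in SCRpro, 4009 to 9664 in LTP1pro and 1992 to 41190 in vascular libraries, so the groups overlapped. The 26 phloem genes summed to 583 to 726 CPM in outer and 727 to 1868 in vascular libraries, without overlap.

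Far more genes were called higher than lower on the outer side with all 21 libraries. Of 31583 genes tested, 1197 (3.79%) were called higher and 358 (1.13%) lower on the outer side, and the median difference over all genes tested was -0.06 on the log2 scale. SCRpro nuclei alone had 1361 higher (4.31%) and 190 lower (0.602%) than the vascular mean, and LTP1pro nuclei 904 higher (2.86%) and 237 lower (0.75%). The LTP1pro counts depended on the libraries used, and with 17 libraries 1878 genes (5.75% of 32659) were lower in that line. Without LTP1pro replicate 19 alone, 374 were higher and 109 lower there. With 17 libraries, 1227 genes were called higher (3.76% of 32659) and 877 lower (2.69%) on the outer side, so higher genes made up 77.0% of the calls with 21 libraries and 58.3% with 17, as the number lower rose. That share was 60.3% with library totals in place of the scaling factors and 64.5% with the share of pseudogene reads as a covariate. For the outer side as a whole, higher genes outnumbered lower ones in each of these fits.

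The outer tissues shared 318 higher genes (1.01% of those tested) and only 20 lower ones (0.0633%). Among the shared higher genes were the immune receptor FLS2, the transporter PEN3, the WRKY factors WRKY18, WRKY33 and WRKY30 and the jasmonate enzymes LOX4 and OPR3, each of them between 2.40 and 4.10 on the log2 scale above the vascular mean in both outer tissues. Across the 318, the median difference was 2.3 for SCRpro and 2.13 for LTP1pro, and 174 had the larger difference in SCRpro and 144 in LTP1pro. Of them, 301 encode proteins. Both outer group means exceeded all 5 vascular group means for 276 of 318, and all 6 outer libraries exceeded all 15 vascular libraries for 135, where 0.567% of all genes tested did so. Since genes were chosen for this difference, these counts describe them and test nothing. At the edge of the threshold, IGMT2 and AT3G20510 were shared at an adjusted p of 0.00987, and AT1G07650 and AT4G32190 missed it at 0.0101.

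**Figure D1:**
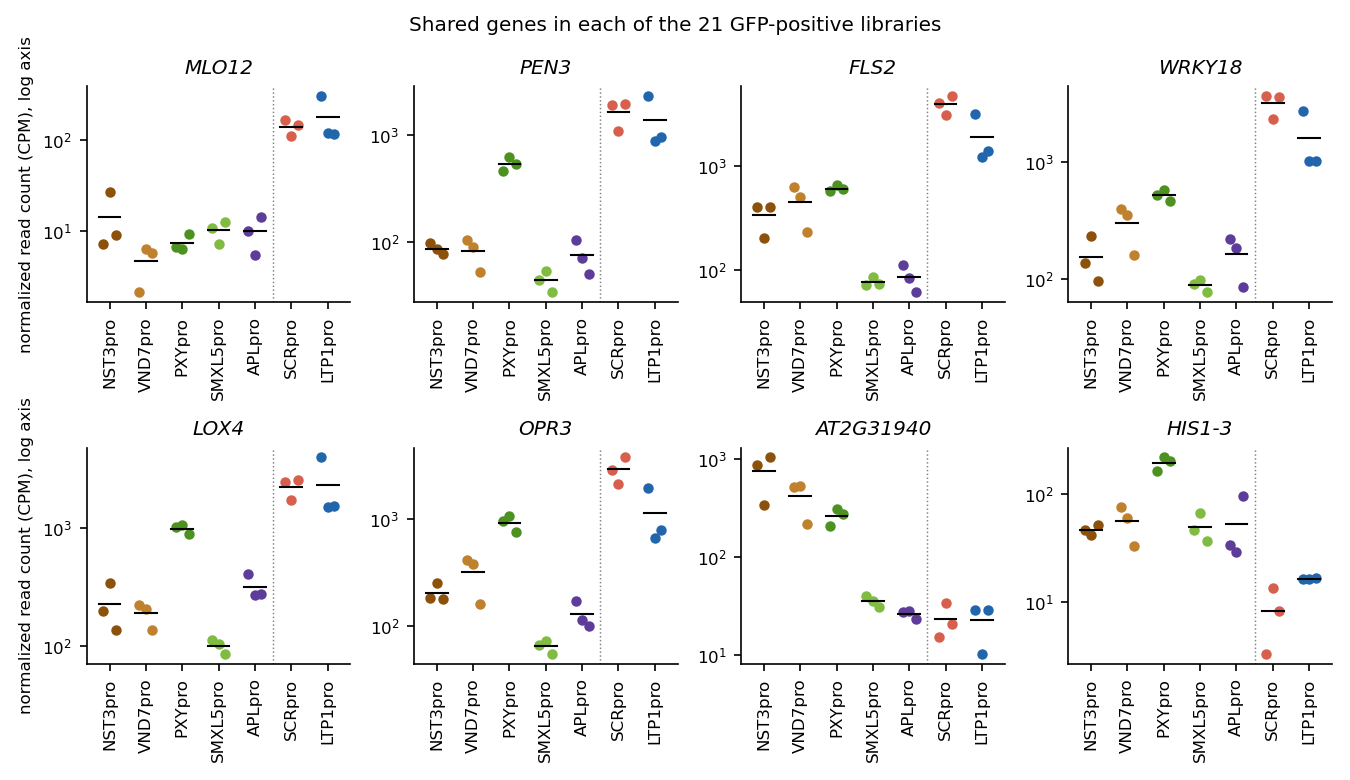
Normalized read count (CPM, log axis) of 8 shared genes in each of the 21 libraries, grouped by line, with horizontal lines at the group means. The outer libraries of MLO12, from 109 to 301 CPM, stand above its highest vascular library at 26.5 CPM, and those of HIS1-3, from 3.33 to 16.6 CPM, stand below its lowest at 28.7 CPM.

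The median level of the 318 genes was 202, 140 and 218 CPM in the SCRpro libraries and 250, 103 and 113 in the LTP1pro libraries, against 20.6 to 81.3 in the vascular libraries. Within the vascular side the PXYpro libraries were highest at 73.2, 81.3 and 66.2 CPM, and PXYpro was the highest vascular group for 226 of the 318 genes, followed by VND7pro for 50, NST3pro for 17, SMXL5pro for 15 and APLpro for 10. The proximal cambium line thus had the highest vascular group mean for most of these genes. The paper first profiled NST3pro, SMXL5pro and APLpro nuclei and afterwards the remaining lines, which include PXYpro, VND7pro and both outer lines. Tissue, line and this order of profiling cannot be told apart, and the share of PXYpro over all genes tested was not counted. LTP1pro replicate 19 was the highest outer library for 194 of the 318.

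How many genes were shared rested on single libraries. Without LTP1pro replicate 19 the number of shared higher genes fell to 146, of which 142 were among the 318, and without SCRpro replicate 16 it was 200, whereas without NST3pro replicate 2 it was 367. Called in every one of the 21 fits that each left out 1 library were 112 of the 318. With the 17 libraries, 279 genes were shared higher (0.854%) and 161 lower (0.493%), and 233 higher and 18 lower genes were shared with both sets of libraries.

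**Figure D2:**
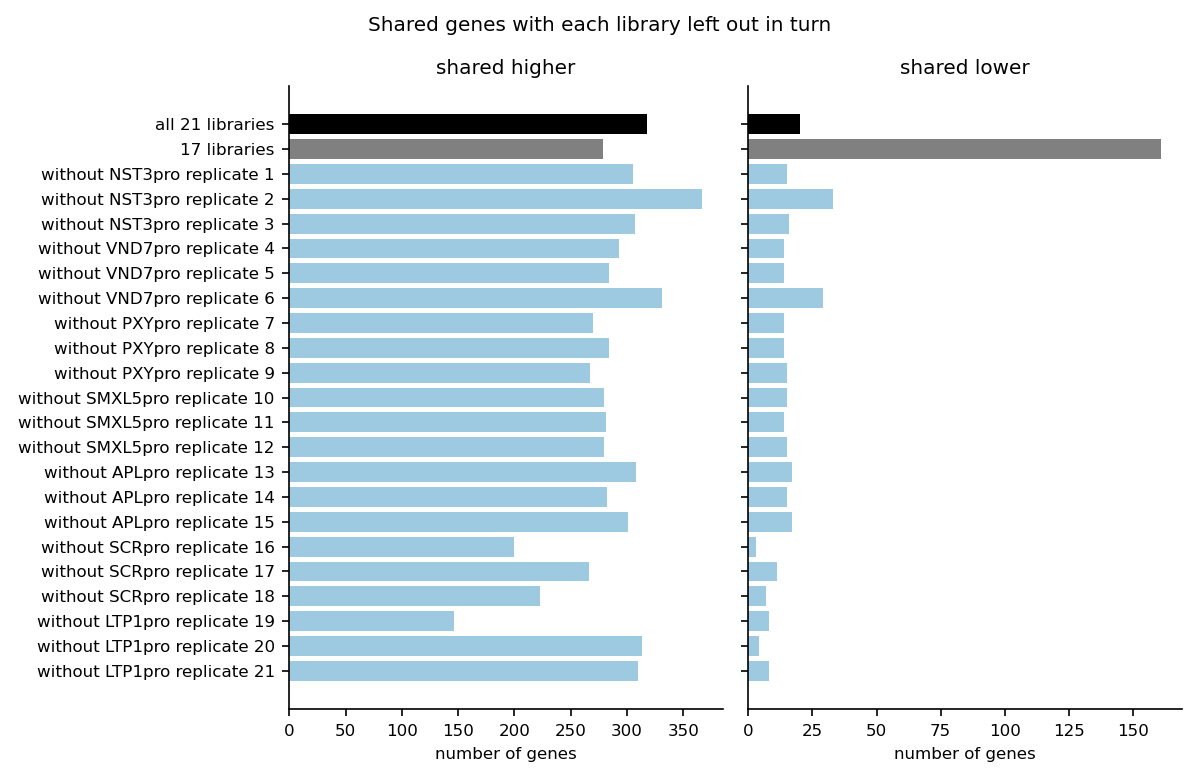
Number of genes shared higher and shared lower by SCRpro and LTP1pro nuclei in each fit without 1 library, with the counts from all 21 libraries and from 17 as the top bars. The higher count ranges from 146 without LTP1pro replicate 19 to 367 without NST3pro replicate 2, and the lower count from 3 to 33.

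MLO12 (AT2G39200), a member of the membrane protein family that powdery mildew fungi need to enter plant cells, had the largest difference found in both tissues. Its level was 165, 109 and 143 CPM in SCRpro and 301, 118 and 116 CPM in LTP1pro, against 2.14, 7.33 and 26.5 CPM as the lowest, median and highest of the vascular libraries. Every outer library was far above the highest vascular one. The difference was 4.00 ± 0.31 in SCRpro and 4.35 ± 0.31 in LTP1pro (adjusted p = 4.2e-08 in edgeR for both tissues). NADK1 (AT3G21070), a cytosolic NAD kinase, reached 1100, 896 and 1380 CPM in SCRpro and 547, 209 and 229 CPM in LTP1pro, where the vascular libraries had 9.67, 32.0 and 47.9 CPM. It too did not overlap, with differences of 5.29 ± 0.30 and 3.51 ± 0.30. AT5G02230, a hydrolase of the haloacid dehalogenase superfamily, completed the 3 genes standing farthest above the vascular libraries, at 181 to 948 CPM against at most 40.3.

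PEN3 (AT1G59870), an ABC transporter that limits fungal entry at the cell surface, had 1880, 1080 and 1930 CPM in SCRpro and 2300, 873 and 954 CPM in LTP1pro. Its vascular libraries had 33.4, 84.3 and 618 CPM, and the highest were the 3 PXYpro libraries at 457, 618 and 529. The groups did not overlap, and the differences were 3.98 ± 0.28 and 3.73 ± 0.28 (adjusted p = 3.59e-08). The cysteine-rich receptor-like kinase CRK11 (AT4G23190) showed the same order, with 196, 102 and 258 CPM in SCRpro, 227, 85.9 and 107 CPM in LTP1pro and a highest vascular library of 72.5 CPM (4.03 ± 0.33 and 3.63 ± 0.33). XTH18 (AT4G30280), an enzyme that cuts and rejoins xyloglucan chains of the wall, reached 90.9 to 475 CPM in the outer libraries and at most 41.7 in a vascular one (4.43 ± 0.27 and 3.37 ± 0.28). The receptor-like protein RLP54 (AT5G40170; 3.38 ± 0.32 and 3.65 ± 0.32) and the transcription factor MYB50 (AT1G57560; 3.85 ± 0.48 and 3.5 ± 0.49) did not overlap either.

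The other 7 of the 15 genes with the largest shared difference are known by identifier only: AT1G59865, AT5G36925, AT3G46110, AT3G19010, AT1G19020, AT1G51090 and AT5G12340. AT3G19010 encodes a 2-oxoglutarate-dependent oxygenase, and its differences were 4.67 ± 0.27 in SCRpro and 3.49 ± 0.28 in LTP1pro. AT5G12340, a protein with a domain of unknown function, was the most uneven of them, at 76.6 to 108 CPM in SCRpro and 332 to 916 CPM in LTP1pro, against at most 20.0 in a vascular library. All 15 had outer libraries that stood entirely above the vascular ones, and 14 were called in every fit without 1 library. The exception was AT5G36925, which was lost without SCRpro replicate 16, SCRpro replicate 18 or LTP1pro replicate 19 (adjusted p from 0.0104 to 0.0177).

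Upstream sequences are shown for 5 shared higher genes because their letters carry the motifs counted over all shared genes below, and for RD29A as the shared cold response gene. Each is the 250 bases before the annotated start in RefSeq's annotation of TAIR10.1, 5′ to 3′ on the gene's strand, and none of the windows overlaps another gene. Capitals mark TTGAC, the W-box core, and CGCGTT, the rapid stress response element bound by CAMTA factors, on either strand (GTCAA and AACGCG on the other one), and in RD29A they mark CCGAC, the core of the dehydration-responsive element. MLO12 is at chr2:16359944-16360193 (minus strand), CRK11 at chr4:12143859-12144108 (minus), WRKY30 at chr5:8154711-8154960 (minus), XTH18 at chr4:14827212-14827461 (minus), LOX4 at chr1:27308263-27308512 (plus) and RD29A at chr5:21240467-21240716 (plus).
MLO12: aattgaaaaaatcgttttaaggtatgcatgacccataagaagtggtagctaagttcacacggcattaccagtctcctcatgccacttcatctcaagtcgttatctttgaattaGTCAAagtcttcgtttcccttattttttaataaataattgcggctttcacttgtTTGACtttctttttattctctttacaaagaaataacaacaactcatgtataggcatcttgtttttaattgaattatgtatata
CRK11: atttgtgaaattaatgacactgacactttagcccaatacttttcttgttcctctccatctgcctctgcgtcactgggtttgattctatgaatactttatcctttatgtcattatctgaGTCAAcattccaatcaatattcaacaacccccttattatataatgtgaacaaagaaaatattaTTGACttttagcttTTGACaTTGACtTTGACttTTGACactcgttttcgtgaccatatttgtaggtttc
WRKY30: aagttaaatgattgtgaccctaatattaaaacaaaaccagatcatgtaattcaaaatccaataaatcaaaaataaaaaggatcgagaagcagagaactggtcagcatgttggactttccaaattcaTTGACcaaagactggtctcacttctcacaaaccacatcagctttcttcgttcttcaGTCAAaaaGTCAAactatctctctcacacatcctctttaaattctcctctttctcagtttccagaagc
XTH18: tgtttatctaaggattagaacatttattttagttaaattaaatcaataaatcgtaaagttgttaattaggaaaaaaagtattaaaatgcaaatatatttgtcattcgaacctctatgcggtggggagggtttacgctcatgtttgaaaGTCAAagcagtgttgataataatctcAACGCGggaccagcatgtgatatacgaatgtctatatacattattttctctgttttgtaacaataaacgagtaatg
LOX4: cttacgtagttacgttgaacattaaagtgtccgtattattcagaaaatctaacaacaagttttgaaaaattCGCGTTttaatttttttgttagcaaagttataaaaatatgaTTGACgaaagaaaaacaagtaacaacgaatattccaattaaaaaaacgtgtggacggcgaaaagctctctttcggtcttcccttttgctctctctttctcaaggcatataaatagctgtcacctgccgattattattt
RD29A: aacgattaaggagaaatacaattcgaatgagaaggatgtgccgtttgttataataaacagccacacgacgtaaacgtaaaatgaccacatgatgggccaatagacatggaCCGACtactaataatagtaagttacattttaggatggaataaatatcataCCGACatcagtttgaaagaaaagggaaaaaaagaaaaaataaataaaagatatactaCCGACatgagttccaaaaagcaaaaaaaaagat

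The window of CRK11 held 6 TTGAC matches, WRKY30 held 3 and MLO12 held 2, whereas XTH18 and LOX4 each had 1 TTGAC and 1 CGCGTT. Over 300 bases, from 250 before to 50 after the start, 208 of the 318 shared higher promoters (65.4%) had TTGAC on either strand, against 49.7% of 31581 promoters of tested genes and 3 of the 20 shared lower promoters (15.0%). CGCGTT was found in 32 of 318 (10.1%) against 3.39% of all. In 2 shared higher promoters a TTGAC and a CGCGTT match overlapped. CCGAC was found in 21.1% of the shared higher promoters and 15.5% of all, and ACGTG, the core of the abscisic acid response element, in 31.4% and 25.5%. The L1 box TAAATGNA, bound by epidermal HD-ZIP IV factors, was found in 13.2% against 11%, and the tracheary element regulating element in 1.57% against 2.22%. Among 261 genes that were called higher in SCRpro, were not called higher in LTP1pro and also exceeded LTP1pro in the direct comparison of both, TTGAC was found in 50.6%, CCGAC in 29.1% and ACGTG in 41% of promoters. The 108 genes chosen by the reverse rule had TTGAC in 57.4%, CCGAC in 10.2% and the L1 box in 16.7%. A match is a run of letters and not a known binding site, and these shares have no test.

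Genes of jasmonate synthesis, signalling and turnover were the list with the largest share of outer calls. Of 35 tested, 26 were higher in the outer tissues and none was lower in edgeR, in DESeq2 or at an unadjusted p under 0.05 (0 each), and the list median was 1.93 against -0.06 for all genes. Of all genes tested, 3.79% were called higher on the outer side, 4.31% in SCRpro and 2.86% in LTP1pro, and 1.01% were shared higher. SCRpro nuclei contributed more of this than LTP1pro nuclei, with 27 against 12 members higher than the vascular mean, and 11 were shared: the synthesis genes LOX3, LOX4, AOC1 and OPR3, the repressors JAZ1, JAZ8, JAZ9 and JAZ10, and the catabolic P450s CYP94B1, CYP94B3 and CYP94C1. The summed level of the list was 6998 to 28381 CPM in outer and 1102 to 7903 CPM in vascular libraries. Without LTP1pro replicate 19, the number shared fell to 6, while 25 remained called on the outer side. With 17 libraries, 25 were called and 10 were shared. The jasmonate list and the other gene lists were chosen with earlier results of these data known, so their counts and ranking test nothing.

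Among the synthesis genes, LOX4 (AT1G72520), a lipoxygenase of the first step, had the most even rise, at 2420, 1710 and 2550 CPM in SCRpro and 3930, 1490 and 1530 CPM in LTP1pro against 86.1, 224 and 1050 CPM as the lowest, median and highest of the vascular libraries. The groups did not overlap, and the differences were 3.06 ± 0.30 and 3.12 ± 0.29 (adjusted p = 3.66e-07). OPR3 (AT2G06050), the reductase of the peroxisomal step, was at 2870, 2120 and 3800 CPM in SCRpro and 1970, 663 and 796 CPM in LTP1pro, and here 2 LTP1pro libraries fell below the highest vascular one, PXYpro replicate 8 at 1070 CPM. Its differences were 3.75 ± 0.30 and 2.40 ± 0.31. AOS (3.09 ± 0.29 in SCRpro, 1.03 ± 0.33 in LTP1pro) and AOC2 (4.68 ± 0.45 and 0.48 ± 0.56) were called in SCRpro but not in LTP1pro, and AOC1 (5.10 ± 0.27 and 1.52 ± 0.31) in both. AOC1, AOC2 and AOC3 are near-identical neighbours and the authors counted unique hits, so their separate values are uncertain.

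JAR1, the enzyme that couples jasmonate to isoleucine, rose in SCRpro nuclei (3.80 ± 0.26, against -0.39 ± 0.34 in LTP1pro), and SCRpro and LTP1pro differed by 4.20 (adjusted p = 2.9e-05 in edgeR). The receptor gene COI1 was not called on the outer side (-0.40 ± 0.21). Of the repressors, JAZ10 (AT5G13220) reached 417, 292 and 514 CPM in SCRpro and 220, 89.6 and 120 CPM in LTP1pro, all above the highest vascular library at 73.1 CPM (3.99 ± 0.24 and 2.48 ± 0.25). JAZ7 (4.03 ± 0.25 and 1.23 ± 0.28) was higher in both comparisons but was not shared (adjusted p = 0.018).

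CYP94B1 (AT5G63450), which oxidises the jasmonate-isoleucine conjugate, had the largest difference of the list. It was at 759, 427 and 913 CPM in SCRpro, at 83.5, 29.2 and 33.4 CPM in LTP1pro and at 0.856, 8.50 and 13.3 CPM in the vascular libraries. The levels fell into 3 separate ranges. Both outer groups exceeded the vascular mean (6.50 ± 0.33 and 2.65 ± 0.35), and SCRpro exceeded LTP1pro by 3.85 ± 0.57 (adjusted p = 0.000259). The jasmonate-oxidising enzyme gene JOX2 (3.82 ± 0.28 and 0.74 ± 0.33) and the conjugate hydrolase gene ILL6 (3.47 ± 0.26 and 0.55 ± 0.30) were called in SCRpro but not in LTP1pro. VSP1, a classic target, was at 2.78 ± 0.27 in SCRpro and 1.13 ± 0.30 in LTP1pro, and was not shared (adjusted p = 0.0604). SCRpro exceeded LTP1pro in 12 of the 35, where 1.19% of all genes tested did so.

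**Figure D3:**
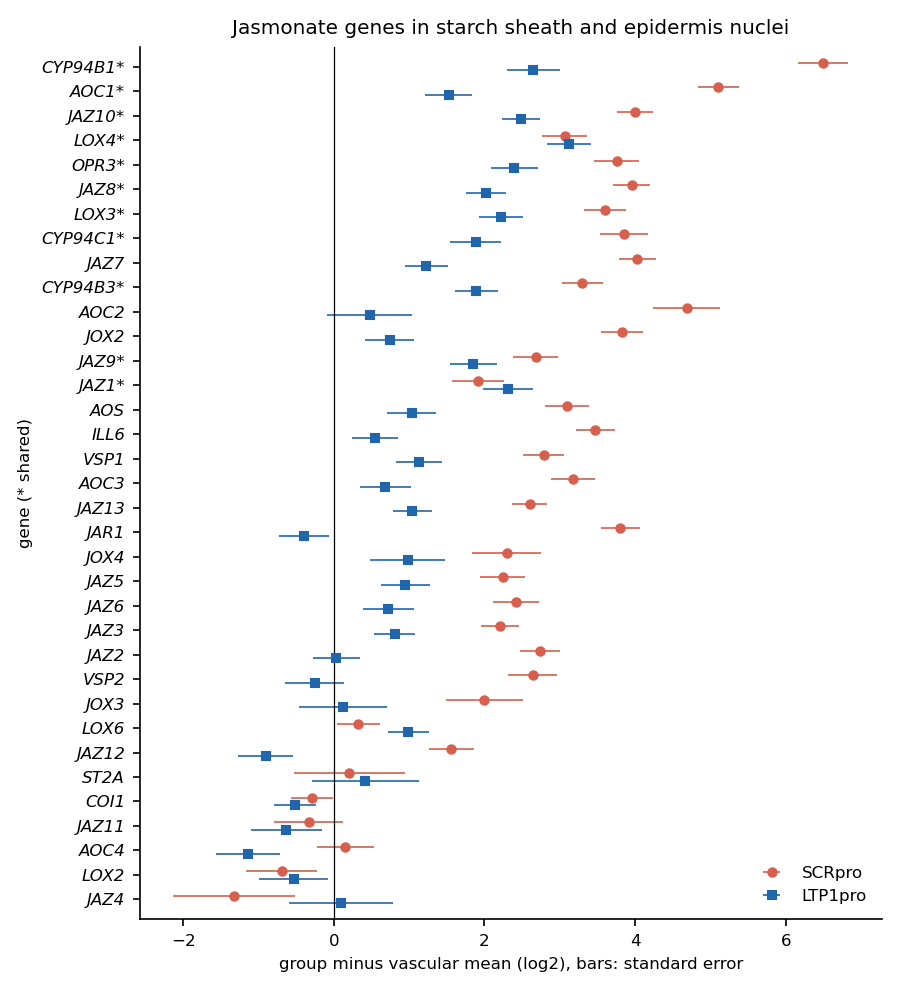
Difference of SCRpro and of LTP1pro nuclei from the vascular mean (log2, with SE) for the members of the jasmonate list. CYP94B1 lies at 6.50 in SCRpro and 2.65 in LTP1pro, LOX4 at 3.06 and 3.12, and JAR1 at 3.80 and -0.39.

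Of 27 immune receptor and salicylate genes, 11 were higher and 1 was lower on the outer side, where 3.79% and 1.13% of all genes tested were. Shared higher were 7, against 1.01% of all genes tested: FLS2, EFR, CERK1, SOBIR1, BIK1, SAG101 and EDS5. FLS2 (AT5G46330), the receptor of bacterial flagellin, was at 3990, 3040 and 4690 CPM in SCRpro and 3110, 1220 and 1400 CPM in LTP1pro, against 61.4, 234 and 652 CPM in the vascular libraries. All outer libraries were above all vascular ones. Its differences were 4.10 ± 0.30 and 3.06 ± 0.31 (adjusted p = 5.99e-07). CERK1, which acts in chitin perception (2.07 ± 0.29 and 2.5 ± 0.28), and SOBIR1, the kinase partner of receptor-like proteins (2.67 ± 0.32 and 2.76 ± 0.32), did not overlap either, and genes on the opposite strand cover 31.6% of SOBIR1, whose reads were counted without strand. EFR, the receptor of bacterial elongation factor Tu, was shared at the edge of the threshold (2.17 ± 0.26 and 1.29 ± 0.28, adjusted p = 0.00987).

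EDS5 (AT4G39030), a transporter needed for salicylate accumulation, was at 125, 62.0 and 133 CPM in SCRpro and 292, 142 and 171 CPM in LTP1pro, just above the highest vascular library at 55.9 CPM. The differences were 2.00 ± 0.33 and 2.91 ± 0.31. The salicylate genes did not move as a group: SAG101 rose (1.36 ± 0.29 and 1.34 ± 0.29), PAD4, which like SAG101 pairs with EDS1, was called lower in SCRpro (-1.21 ± 0.29) and was at 0.03 ± 0.26 in LTP1pro, and PR5 was called higher in LTP1pro (2.09 ± 0.26, against -0.29 ± 0.32). The number of shared immune genes depended on single libraries, at 2 without SCRpro replicate 18, 3 without SCRpro replicate 16, 4 without LTP1pro replicate 19 and 4 with 17 libraries. CERK1 was lost without SCRpro replicate 18 (adjusted p = 0.0117) and EDS5 without SCRpro replicate 16 (0.0128) or 18 (0.0156), while FLS2 and SOBIR1 were kept in every fit without 1 library. The summed level of the list was 3563 to 8660 CPM in outer and 811 to 4320 CPM in vascular libraries.

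In the WRKY family, 14 of 67 tested members were higher in the outer tissues, 0 were lower in edgeR (1 in DESeq2, 7 at an unadjusted p under 0.05), and 8 were shared: WRKY15, WRKY18, WRKY22, WRKY30, WRKY33, WRKY40, WRKY48 and WRKY53. Of all genes tested, 3.79% were called higher and 1.01% were shared higher. The rise covered a part of the family, since the median over all 67 was -0.10. WRKY18 (AT4G31800) was at 3650, 2300 and 3580 CPM in SCRpro and 2730, 1020 and 1020 CPM in LTP1pro, against 77.4, 186 and 578 CPM in the vascular libraries, without overlap (3.95 ± 0.32 and 2.95 ± 0.32, adjusted p = 2.06e-06). WRKY33, a factor of camalexin synthesis and fungal resistance, had 368 to 1060 CPM in the outer libraries and at most 248 in a vascular one (2.77 ± 0.28 and 2.99 ± 0.28). WRKY30 was low everywhere, at 28.6, 35.1 and 41.9 CPM in SCRpro, 60.8, 35.3 and 22.1 CPM in LTP1pro and at most 9.21 CPM in a vascular library. It was lost in 4 fits without 1 library, those without SCRpro replicates 16, 17 or 18 or LTP1pro replicate 19 (adjusted p from 0.0102 to 0.0489). WRKY53, a senescence regulator, was lost without SCRpro replicate 16 (adjusted p = 0.0394).

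Of the other WRKY genes, WRKY11 was called in both outer tissues (1.20 ± 0.28 in SCRpro and 2.56 ± 0.25 in LTP1pro), missed sharing at an adjusted p of 0.0171 and was shared with 17 libraries. WRKY25, WRKY28, WRKY46 and WRKY57 were called in SCRpro only and WRKY6, WRKY26 and WRKY51 in LTP1pro only. WRKY28 (AT4G18170) was at 338, 142 and 280 CPM in SCRpro and 4.28, 21.8 and 9.30 CPM in LTP1pro, against at most 19.3 in a vascular library, and differed between both outer tissues (4.43, adjusted p = 0.00671). WRKY6 (AT1G62300) was higher in LTP1pro, with 41.3, 40.4 and 35.5 CPM in SCRpro and 418, 168 and 207 CPM in LTP1pro, and all 6 outer libraries lay above the highest vascular one at 30.2 CPM (-2.76 for SCRpro against LTP1pro, adjusted p = 0.00215). The summed WRKY level was 4289 to 9485 CPM in outer and 1330 to 3805 CPM in vascular libraries, without overlap. The number called stayed between 13 and 15 in the fits without 1 library and was 14 with 17 libraries.

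Touch and wound response genes were called higher in 17 of 36 cases and lower in 2, where 3.79% and 1.13% of all genes tested were. Of the 36, 7 were shared higher (PUB23, PUB24, MYB15, ZAT11, CML12, CML37 and CML38) and ERF104 was shared lower. Their calls depended on single libraries: 10 were called higher without LTP1pro replicate 19, 11 without SCRpro replicate 16 and 11 with 17 libraries. The calmodulin-like gene CML37 (AT5G42380) was at 248, 170 and 214 CPM in SCRpro and 445, 164 and 161 CPM in LTP1pro, against 5.74, 53.9 and 218 CPM in the vascular libraries, which overlapped the outer ones. Its differences were 2.08 ± 0.30 and 2.36 ± 0.29 (adjusted p = 9.34e-05). The related CML38 (3.23 ± 0.26 and 1.63 ± 0.28) was lost without LTP1pro replicate 19 (adjusted p = 0.155), and ZAT11, a zinc finger factor gene (2.33 ± 0.39 and 2.86 ± 0.37), without SCRpro replicate 16 (adjusted p = 0.0649).

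PUB23, a U-box ubiquitin ligase that dampens immune signalling, had 53.1 to 189 CPM in the outer libraries and at most 28.1 in a vascular one (2.11 ± 0.29 and 3.12 ± 0.27), but 57.9% of its length lies under an opposite-strand gene, so its count is uncertain. ERF104 (AT5G61600), an ethylene response factor, went the other way at 7.48 to 26.5 CPM in the outer and 24.4 to 144 CPM in the vascular libraries (-2.15 ± 0.37 and -1.62 ± 0.34). It was lost in 20 of the 21 fits without 1 library. The summed level of the list was 4404 to 10968 CPM in outer and 1169 to 9003 CPM in vascular libraries, so the sides overlapped.

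Of 23 cold and abscisic acid response genes, 4 were called higher on the outer side, 9 in SCRpro and 1 in LTP1pro, with a list median of 0.18 on the outer side and 0.41 in SCRpro, and RD29A was shared. Of all genes tested, 3.79% were called higher on the outer side, 4.31% in SCRpro and 2.86% in LTP1pro. RD29A (AT5G52310), a marker of drought and cold responses with the 3 CCGAC matches printed above, was at 3020, 1570 and 2680 CPM in SCRpro, at 695, 259 and 263 CPM in LTP1pro and at 33.8, 103 and 390 CPM in the vascular libraries. SCRpro stood above every other library, whereas LTP1pro replicates 20 and 21 overlapped the vascular range. The differences were 4.53 ± 0.29 and 1.95 ± 0.31, SCRpro exceeded LTP1pro by 2.58 ± 0.49 (adjusted p = 0.0023), and the shared call was lost without LTP1pro replicate 19 (adjusted p = 0.0698). KIN2 (4.54 ± 0.26 and 1.01 ± 0.30) and KIN1 (3.91 ± 0.72 and 2.41 ± 0.76), near-identical neighbours whose separate values are uncertain, were called in SCRpro and on the outer side but not shared. NCED3, the enzyme that limits abscisic acid synthesis, was at 2.3 ± 0.25 and 1.03 ± 0.27 (adjusted p for sharing = 0.0521).

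CAMTA3, a calmodulin-binding factor that binds CGCG-containing elements, was the single member of its family of 6 that was called, at 181 to 360 CPM in SCRpro, 94.4 to 250 in LTP1pro and 30.9 to 129 in the vascular libraries (2.06 ± 0.27 and 1.34 ± 0.28). Of all genes tested, 3.79% were called higher on the outer side and 1.01% were shared higher. The shared call of CAMTA3 was weak: it was lost in 9 fits without 1 library (adjusted p from 0.01 to 0.532) and with 17 libraries (adjusted p = 0.0589).

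**Figure D4:**
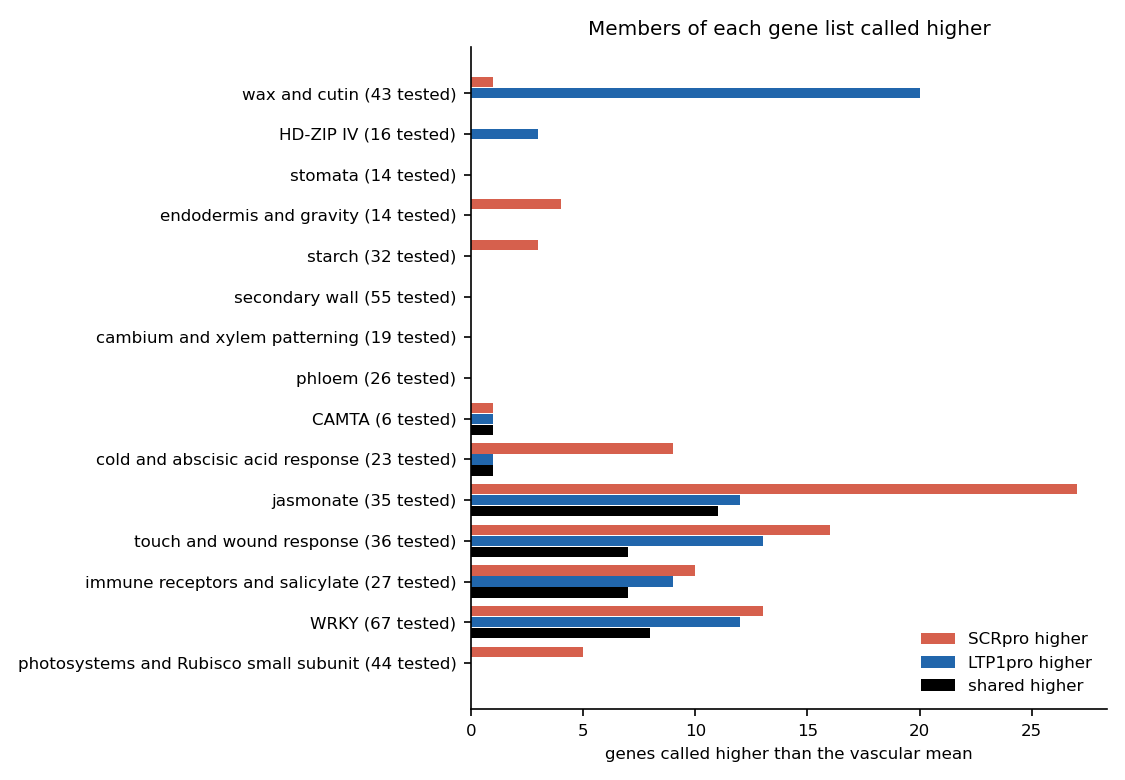
Number of members of each gene list called higher in SCRpro, in LTP1pro and in both (shared) against the vascular mean. Jasmonate genes show 27, 12 and 11, WRKY genes 13, 12 and 8, and wax and cutin genes 1, 20 and 0.

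Genes of the functions that define each outer tissue were, where called higher, called in that tissue and not in the other, with KCS20 as the exception among wax and cutin, endodermis and starch genes. Wax and cutin genes were higher in 15 of 43 cases on the outer side, 20 in LTP1pro and 1 in SCRpro. Of all genes tested, 3.79% were called higher on the outer side, 2.86% in LTP1pro and 4.31% in SCRpro. CER4 (AT4G33790), the reductase that makes primary alcohols of wax, was at 2160, 646 and 834 CPM in LTP1pro, at 32.0, 21.6 and 31.4 CPM in SCRpro and at 1.93, 15.2 and 102 CPM in the vascular libraries. Only the epidermis libraries stood apart. The elongases KCS20 (4.76 ± 0.28 in LTP1pro, 1.44 ± 0.31 in SCRpro) and CER6 (2.90 ± 0.29 and 0.55 ± 0.34) followed, together with KCS2 (5.36 ± 0.26 and -0.25 ± 0.35), whose locus is covered to 75.9% by genes on the opposite strand. KCS20, called in both outer tissues, missed sharing at an adjusted p of 0.0104 and was shared with 17 libraries. In 11 of the 43, LTP1pro exceeded SCRpro, where 0.459% of all genes tested did so. The summed level was 6724 to 18886 CPM in LTP1pro, 1438 to 1707 in SCRpro and 1166 to 1891 in vascular libraries. Of 16 HD-ZIP IV factors, a family that acts in the outer cell layer, 2 were called on the outer side and 3 in LTP1pro, and the list median was 0.06 on the outer side. The pair called on the outer side was ANL2 (2.99 ± 0.23 in LTP1pro and 0.36 ± 0.27 in SCRpro) and PDF2 (2.14 ± 0.30 and 0.24 ± 0.35), and the outer call of PDF2 was lost without SCRpro replicate 16 or LTP1pro replicate 19 (adjusted p from 0.0329 to 0.0333).

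On the starch sheath side, 3 of 14 genes of endodermis identity and gravity sensing were called higher in the outer comparison, 4 in SCRpro. Of all genes tested, 3.79% and 4.31% were called higher in these comparisons. SGR6 (AT2G36810), a gene of shoot gravitropism, was at 1030, 716 and 1120 CPM in SCRpro, at 158, 105 and 159 CPM in LTP1pro and at 85.4, 110 and 247 CPM in the vascular libraries (3.00 ± 0.23 and 0.24 ± 0.27). LTP1pro lay within the vascular range. PIN3, an auxin efflux carrier, was at 1.81 ± 0.33 and 0.74 ± 0.35, and LZY1, another gravitropism gene, at 1.85 ± 0.34 and 0.39 ± 0.37. The outer call of LZY1 was lost in 19 of the 21 fits without 1 library (adjusted p from 0.0103 to 0.0561) and that of PIN3 in 3 (0.0101 to 0.0258), and with 17 libraries both were under 2-fold, so that 1 of 14 was called. Of 32 starch genes, 3 were called: the β-amylases BAM3 (3.64 ± 0.29 and 0.03 ± 0.35) and BAM1 (1.44 ± 0.26 and 0.75 ± 0.27) and the granule-bound starch synthase GBSS1 (2.15 ± 0.26 and 0.04 ± 0.30). BAM3 is covered to 21.8% by genes on the opposite strand. The outer difference of BAM1 was under 2-fold with 17 libraries (0.77) and without LTP1pro replicate 19 (0.86). That of GBSS1 was under 2-fold without SCRpro replicate 18 (0.98) or LTP1pro replicate 21 (0.95). With 17 libraries, 2 of the 32 starch genes were called. Leaving out SCRpro replicate 16 or LTP1pro replicate 19 left 1 of the 3 gravity genes called.

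**Figure D5:**
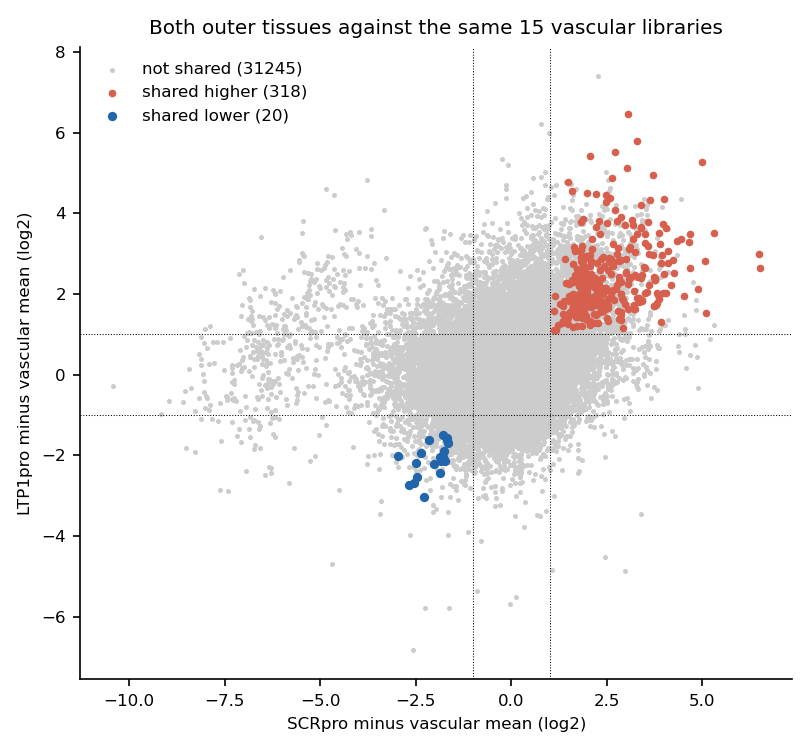
Difference from the vascular mean (log2) of SCRpro on the x axis and LTP1pro on the y axis for all genes tested, with the 318 shared higher and 20 shared lower genes coloured. Both axes use the same 15 vascular libraries, and the 445 genes with an SCRpro value under -4 include 382 with 0 reads in all 3 SCRpro libraries.

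A direct comparison shows where the outer tissues differ from each other. SCRpro nuclei had 375 genes (1.19%) above and 145 (0.459%) below LTP1pro nuclei, and with 17 libraries these were 2184 (6.69%) and 275 (0.842%). The first count ranged from 70 without LTP1pro replicate 21 to 437 without LTP1pro replicate 19. Of the 318 shared higher genes, 22 differed. Higher in SCRpro were 12, namely HEMA2, NSL1, JAZ8, AT2G46520, MYB15, AOC1, AT3G57460, CBL1, RD29A, AT5G56980, CYP94B1 and ABR1. Higher in LTP1pro were 10, including the receptor-like kinases CRK10 and CRK41, AT1G33600, AT2G25735 and AT5G28630. These genes were named after their values were seen. For the rest no difference was called, which does not show that their levels are equal.

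The shared lower genes were few and their differences smaller, with medians of -1.86 in SCRpro and -2.09 in LTP1pro. HIS1-3 (AT2G18050), a drought-inducible linker histone, was at 3.33, 13.5 and 8.23 CPM in SCRpro and 16.3, 16.4 and 16.6 CPM in LTP1pro, against 28.7, 51.9 and 216 CPM in the vascular libraries. It was 1 of 3 shared lower genes without overlap, where 18 of all genes tested (0.057%) had every outer library below every vascular one, the others being AT4G19160, a transglutaminase family gene, and SYP41, a syntaxin of the trans-Golgi network. Its differences were -2.98 ± 0.44 and -2.02 ± 0.40 (adjusted p = 0.00385). AT2G31940 had the largest difference found in both (-2.68 ± 0.43 and -2.74 ± 0.43). It was at 10.3 to 34.0 CPM in the outer libraries and 23.5, 219 and 1040 CPM in the vascular ones, which overlapped. Its group means were 749 CPM in NST3pro, 420 in VND7pro and 264 in PXYpro. They were 35.9 in SMXL5pro and 26.3 in APLpro, near the 23.4 in SCRpro and 22.6 in LTP1pro. GLN1;4, a cytosolic glutamine synthetase (-1.80 ± 0.38 and -2.12 ± 0.39), the signalling peptide gene RTFL8 (-2.54 ± 0.44 and -2.69 ± 0.44) and RXF12, a xylanase family gene (-1.86 ± 0.34 and -2.44 ± 0.35), were also shared lower. Genes on the opposite strand cover 68.4% of AT1G06540, 18.1% of SYP41 and 17.6% of AT2G33620, which are among the 20.

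The highest vascular group mean of the 20 was that of VND7pro for 10, NST3pro for 5 and PXYpro for 5. None of the 20 was called in all 21 fits without 1 library. Without SCRpro replicate 16 the count was 3, without LTP1pro replicate 19 it was 8, and without NST3pro replicate 2 it was 33. HIS1-3 was lost without SMXL5pro replicate 11 or any 1 LTP1pro library (adjusted p from 0.0103 to 0.0509), and AT2G31940 only without SCRpro replicate 16 (adjusted p = 0.0112). With 17 libraries, 16 of the 17 lower genes named by the rule were shared and SYP41 was not (adjusted p = 0.0112).

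Of the vascular gene lists, 5 genes in all were called lower on the outer side, where 1.13% of all genes tested were. Of 55 secondary wall genes 2 were lower (13 at an unadjusted p under 0.05, list median -0.36), the regulators MYB69 (-1.40 ± 0.34) and SND3 (-1.05 ± 0.23). With 17 libraries 13 were lower, and 37 were lower in LTP1pro nuclei, in which 1878 genes (5.75%) were lower, and the library left out of that group, LTP1pro replicate 19, exceeded its 2 fellows by a median of 1.08 over this list. Of 19 genes of cambium and xylem patterning 2 were lower (10 at an unadjusted p under 0.05, list median -0.67), WOX4 (-1.41 ± 0.31), which keeps cambium cells dividing, and ATHB8 (-1.17 ± 0.26), a procambium factor. Of 26 phloem genes 1 was lower (9 at an unadjusted p under 0.05, list median -0.56), the sieve element protein gene SEOa (-1.20 ± 0.24). None of these 5 was shared. MYB69 was lost in 17 fits without 1 library, WOX4 and ATHB8 in 4 each, and SND3 and SEOa in 1 each. Among 14 stomatal genes KAT1, a potassium channel of guard cells, was lower on the outer side (-1.51 ± 0.25). It was called lower in SCRpro (-2.04 ± 0.35) but not in LTP1pro (-0.98, adjusted p = 0.0605 in edgeR). Its mean was 34.4 CPM in LTP1pro, 254 in APLpro and 26.6 to 64.4 in the other vascular lines. The summed stomatal list was at 262 to 283 CPM in LTP1pro, 148 to 179 in SCRpro and 171 to 726 in vascular libraries. Of 44 photosystem and Rubisco genes 0 were called on the outer side in edgeR (1 higher in DESeq2, 2 higher and 1 lower at an unadjusted p under 0.05). The list median was 0.77 in SCRpro and -0.99 in LTP1pro. In SCRpro 5 were called higher, where 4.31% of all genes tested were. With 17 libraries, 6 were higher in SCRpro and 34 were lower in LTP1pro. LTP1pro replicate 19 exceeded its 2 fellows by a median of 1.09 over this list. The sum of the 44 was 10267 to 15825 CPM in SCRpro, 2094 to 5278 in LTP1pro and 1180 to 35111 in vascular libraries. The part of vascular and green tissue RNA in the outer sorts was not tested.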

How the data were processed

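Nuclei from the second internode of 7 H4-GFP reporter lines were sorted by fluorescence, and their RNA was amplified with SMART-seq2, which marks neither strand nor single molecules. Where more than 3 samples of a kind were prepared, the authors chose among the cDNA preparations by PCR. The authors trimmed the reads with cutadapt 2.3, aligned them with STAR 2.5.0a to TAIR10, kept unique hits and counted them against Araport11 with summarizeOverlaps in R 3.5.0 (Union mode, strand ignored, introns included). The deposited values are raw read counts per gene, not normalized. Without molecular identifiers, reads are not independent molecules.

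Counts were fitted in R 4.3.3 with edgeR 4.0.16 (TMM scaling, filterByExpr, quasi-likelihood test, two-sided) with the 7 groups as terms and no covariate, on 21 GFP-positive libraries and again on 17. SE is the fold change divided by the square root of F. Depth was 1918733 to 18335693 reads, and depth limits the precision for genes with low counts. The biological coefficient of variation was 0.634 with 21 libraries and 0.541 with 17. Promoters were cut from TAIR10.1 with RefSeq annotation, to which all 37051 genes matched. Genes named are the promoter genes and tissue markers, the 15 shared genes with the largest smaller difference on each side at an average log2 CPM of at least 3, up to 4 shared and 3 other called members of each list, and the 3 shared genes standing farthest above and below the vascular libraries (prior of 1 CPM). The members, gene lists and motifs were chosen with earlier results of these data known. The fitting steps were tested on simulated data. Alternatives were DESeq2 1.42.0 size factors and Wald test, limma 3.58.1 voom with quality weights, library totals, no filter, a pseudogene covariate, each vascular group or library left out, other thresholds, and the 9 GFP-negative libraries in the fit. Tables were handled with Python 3.11.15, pandas 2.3.3, numpy 2.4.6 and scipy 1.17.1 and drawn with matplotlib 3.10.9.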

Additional observations from a re-analysis of the deposited data

Results flagged for a closer look

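Of the shared genes named by the rule, 2 differed between SCRpro and LTP1pro nuclei themselves by the direct test in edgeR. CYP94B1 was higher in SCRpro by 3.85 ± 0.57 (adjusted p = 0.000259), and all 3 SCRpro libraries were above all 3 LTP1pro libraries. RD29A was higher in SCRpro by 2.58 ± 0.49 (adjusted p = 0.0023), again without overlap between both sets of 3 libraries.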

How the results depend on the processing

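None of the shared genes named by the rule reversed under an alternative, whereas the number of shared genes moved. Named results kept their direction and side of the threshold in 3241 comparisons with an alternative, were no longer called, by p or by fold, in 312, became called in 6 and reversed in 5. The reversals concern VND7 and XCP1, at -0.30 and -0.09 on the outer side in the main fit and not called there. Without VND7pro in the vascular mean VND7 was at 0.01 and XCP1 at 0.54. XCP1 ranged from -0.25 to 0.04 without 1 library (0.04 without APLpro replicate 13, 0.03 without SCRpro replicate 16 and 0 without LTP1pro replicate 21). Their cause was not tested, apart from the first pair, where VND7pro was itself the group left out.

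With 17 libraries, 877 genes were lower on the outer side, 161 were shared lower, and SCRpro stood above LTP1pro in 2184 and below it in 275. Library totals gave 603, 108, 586 and 355 for the same 4 counts. The DESeq2 Wald test gave 532 shared higher (316 of them among the 318), 84 shared lower, 869 above and 601 below. limma voom gave 1495 above and 361 below, DESeq2 size factors 224 below, the 9 GFP-negative libraries 245 above, and the pseudogene covariate 640 lower on the outer side, 132 shared lower and 417 below. An adjusted p of 0.05 gave 620 lower on the outer side, 57 shared lower, 1066 above and 390 below. Leaving SMXL5pro out of the vascular mean gave 546 lower on the outer side and 34 shared lower, and leaving out NST3pro, VND7pro or APLpro gave 12, 8 or 48 shared lower. Over the 250 bases before the start alone, TTGAC was in 57.5%, CGCGTT in 6.92% and CCGAC in 15.7% of shared higher promoters, because fewer bases are searched. Other causes were not tested.

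Leaving out 1 library at a time gave 870 to 1391 higher and 254 to 443 lower genes on the outer side, 146 to 367 shared higher, 3 to 33 shared lower, and 70 to 437 above and 57 to 227 below for SCRpro against LTP1pro. The median over all genes moved from -0.06 to -0.224 with library totals and to -0.161 without SCRpro replicate 17. No paired analysis was possible because the replicate numbers run through the series and no number occurs in more than 1 group. Shallow outer libraries limit calls of low genes.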

Other observations

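GFP-negative nuclei of the NST3pro, SMXL5pro and APLpro lines, which hold nuclei of the rest of the stem, were left out of the main fit. They were in a fit only as an alternative. Scaled together in 30 libraries, the median level of the 318 shared higher genes was 24 to 58.9 CPM in the 9 GFP-negative libraries, 20.4 to 79.2 CPM in the GFP-positive vascular libraries and 102 to 293 CPM in the outer libraries. All 6 outer libraries were above all 9 GFP-negative libraries for 198 of the 318, where 332 of all genes tested (1.05%) were, and below them for 2 of the 20 shared lower genes. Since the shared genes were chosen by their levels in these same 6 outer libraries, these counts describe them and test nothing.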
